A study of Mus musculus with 7 samples.

Results

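The genes described here are solute carriers, the membrane transporters whose symbols begin with Slc and a family number or with Slco. They were picked by symbol among the transcript clusters of the classes Coding and Complex in the authors' deposited table, where a transcript cluster is the set of array probes read together as 1 transcript. Of the 3997 distinct coding genes in the table, 65 were solute carriers, each with 1 row, 27 in the class Coding and 38 in the class Complex. GeneChip mouse transcriptome arrays, 1 for each mouse, were hybridized with seminiferous tubule RNA from 3 wild-type and 4 *Ctcf*-cKO animals. *Ctcf*-cKO mice carried a floxed and a deleted *Ctcf* allele and the Stra8-iCre transgene, which is active in spermatogonia and pre-leptotene spermatocytes. Cells it does not reach, such as Sertoli and Leydig cells and early spermatogonia, thus keep the floxed allele alone. This is 1 working copy of *Ctcf*, where wild-type mice have 2. The study still observed CTCF in Sertoli, Leydig and spermatogonial cells of *Ctcf*-cKO testes. The wild-type group could hold littermates with 0, 1 or 2 floxed alleles, and the labels do not say which were used on the arrays. The strain background is spelled C56BL/6J in the study's methods, and the mice were adults.

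Each row holds 1 bi-weight average per genotype, computed by the authors from log2 signals, and the difference of these averages, *Ctcf*-cKO minus wild-type, is the quantity compared here. The table has 0 columns of single arrays, so no spread between mice could be had and no test between genotypes was run here, the authors' own columns of p-values being left out, and the small number of arrays limits every value. Its rows had been chosen by the authors for a linear fold of 2 or more and a p below 0.05, so that every solute carrier listed had to differ between the genotypes. Where a solute carrier had no row, its level was not analysed here and could have been equal or different in the genotypes. *Ctcf* itself has 0 rows, so the RNA level of the inactivated gene could not be checked here. The study reports less CTCF protein in *Ctcf*-cKO testes by immunoblotting and immunostaining.

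Solute carriers move ions, nutrients, metabolites and vitamins across the plasma membrane or the membranes of organelles, either down a gradient or coupled to the movement of sodium, protons or another solute. In the seminiferous tubule, Sertoli cells pass lactate, amino acids and other nutrients on to the germ cells behind the blood-testis barrier. Maturing sperm use exchangers of sodium, protons and anions to set the pH and ion content of the flagellum.

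Lower averages in *Ctcf*-cKO were found for 24 of the 65 solute carriers (36.9%) and higher averages for 41 (63.1%), whereas 61.3% of all coding genes in the table were lower and 38.7% were higher. The lower solute carriers included the sperm sodium/proton exchangers *Slc9c1* and *Slc9b1* and the organic ion transporters *Slc22a14*, *Slc22a15* and *Slc22a16*. Lower too were *Slco6b1*, *Slco6c1* and *Slco6d1*, gonad-specific genes of the organic anion transporter family. The higher ones included 5 genes of the amino acid transporter family Slc7, the gene *Slc3a2* for the partner subunit of *Slc7a5* and *Slc7a8*, 3 neutral amino acid transporters of Slc38 and 9 of 13 mitochondrial carriers. Differences of the lower genes ran from -1.97 to -1.06 on the log2 scale with a median of -1.35, beside a median of -1.29 over all lower coding genes. Those of the higher genes ran from 1.01 to 2.58 with a median of 1.25, beside 1.33 over all higher coding genes. The shares change places among the largest differences. At a linear fold of 3 or more, 8 of the 65 solute carriers were lower (12.3%) and 5 were higher (7.69%), while 8.03% of all coding genes were lower and 10.3% were higher by that fold. Of the 13 solute carriers past this fold 61.5% were lower, beside 43.7% of the 734 coding genes past it. All these shares describe rows already selected for their fold, and none was tested.

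**Figure D1:**
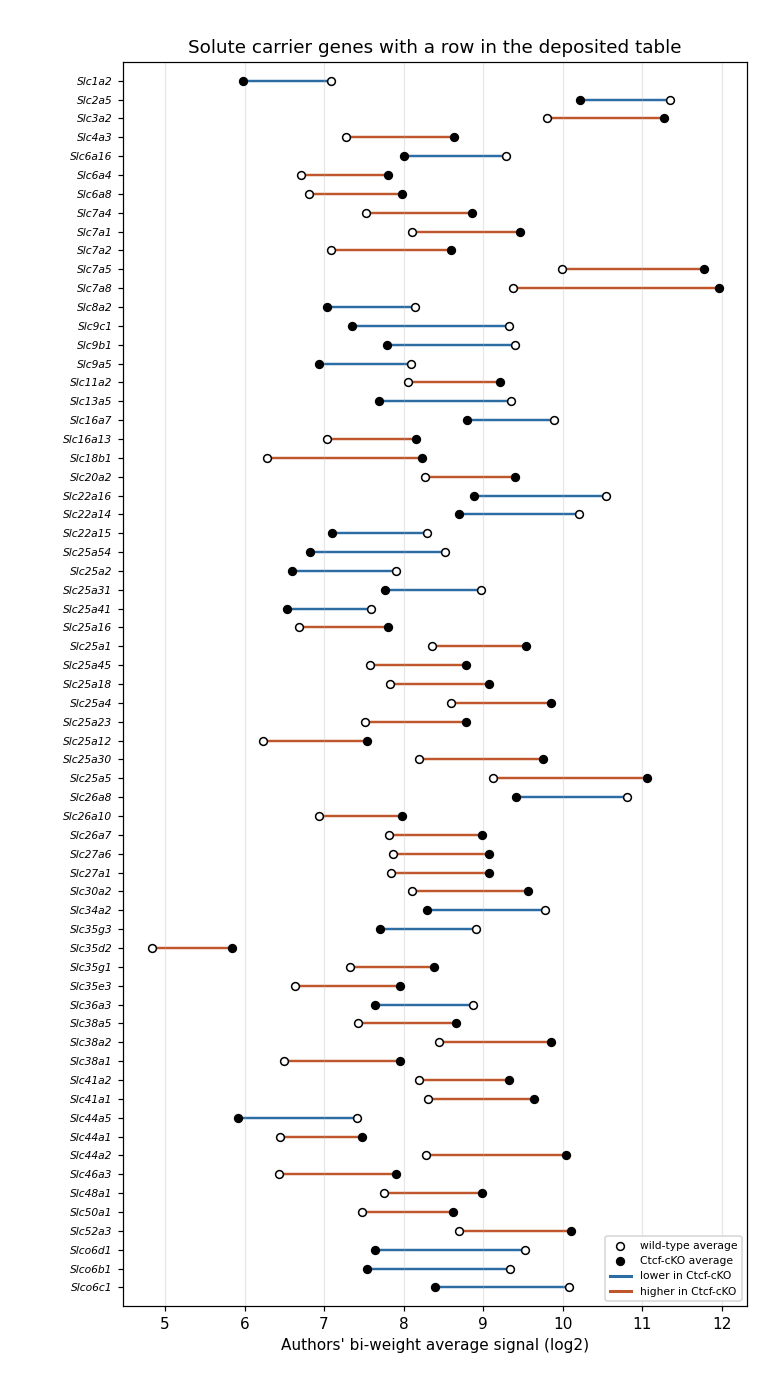
Authors' bi-weight average signal (log2, horizontal axis) of the 65 solute carrier genes in wild-type (open points) and Ctcf-cKO (filled points), ordered by family, with blue lines for the 24 lower and orange lines for the 41 higher genes. The families Slc9, Slc22 and Slco hold blue lines alone and Slc7 and Slc38 orange lines alone; averages have no error bars because the table holds no single arrays.

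The 65 genes came from 29 families, of which 9 held lower genes alone, 14 held higher genes alone and 6 (Slc6, Slc16, Slc25, Slc26, Slc35 and Slc44) held both. In 16 families there was 1 gene with a row, so these could hold only 1 direction. All 16 are among the families with lower or higher genes alone. Genes were also grouped by the kind of substrate assigned to their family, which need not be known for each gene. For comparison, 63.1% of all 65 solute carriers and 38.7% of all coding genes in the table were higher, and no group was tested. By these groups, amino acid and neurotransmitter carriers were mostly higher (12 of 15), as were lipid and choline carriers (4 of 5). So were metal carriers (5 of 5) and genes of the nucleotide sugar carrier family (3 of 4). Mitochondrial carriers were higher in 9 of 13, a share near that of all solute carriers. Carriers of organic ions were all lower (6 of 6), and those of inorganic ions were more often lower (5 of 8). Of the remaining groups, carriers of monocarboxylates and dicarboxylates were lower in 2 of 3, those of sugars in 1 of 2 and those of phosphate in 1 of 2. In the group named nucleosides and vitamins, *Slc46a3* and *Slc52a3* were both higher.

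**Figure D2:**
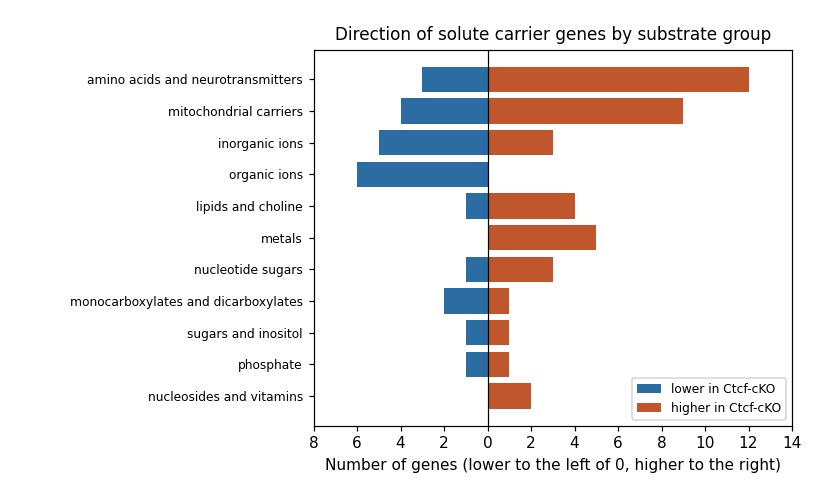
Number of solute carrier genes lower (blue, left of 0) and higher (orange, right of 0) in Ctcf-cKO, for each substrate group, assigned by family, on the vertical axis. Amino acid and neurotransmitter carriers extend to 12 genes on the higher side and organic ion carriers to 6 genes on the lower side.

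Promoters of the higher solute carriers held more CpG than those of the lower ones by their medians, a description without a test. A CpG is a C followed by a G, the target of DNA methylation, and it is dense in promoters of widely used genes. RefSeq promoters (GRCm38.p6, the assembly called mm10 in the submitters' processing notes) were matched for 49 of the 65 genes, and the 250 bases before the start were counted, as a mean over the starts of a gene. Promoters of the 21 matched lower solute carriers held a median of 7 CpG (1 to 28) and those of the 28 matched higher ones 15 (2 to 38). Over the coding genes of the table with a promoter matched by symbol (1484 lower and 1120 higher), the medians were 5 for lower and 13 for higher genes. The same order is thus seen among all matched coding genes. Fewer than 5 CpG were found in 6 of 21 lower promoters (28.6%) and 2 of 28 higher promoters (7.14%), beside 48.5% and 16.0% of the matched lower and higher coding genes and 44.0% of all promoters. Of the lower genes, *Slc9c1* and *Slco6c1* show CpG-poor sequence while *Slc25a31* is CpG-rich like the higher genes *Slc7a8* and *Slc25a5*; each is printed 5′ to 3′ up to the base before the start, with every CG in capitals. They lie at chr16:45535016-45535265 (plus strand, *Slc9c1*, 3 CpG), chr1:97128304-97128553 (minus strand, *Slco6c1*, 4 CpG), chr3:40708621-40708870 (plus strand, *Slc25a31*, 18 CpG), chrX:36795347-36795596 (plus strand, *Slc25a5*, 14 CpG) and chr14:54781887-54782136 (minus strand, *Slc7a8*, 14 CpG).
Slc9c1: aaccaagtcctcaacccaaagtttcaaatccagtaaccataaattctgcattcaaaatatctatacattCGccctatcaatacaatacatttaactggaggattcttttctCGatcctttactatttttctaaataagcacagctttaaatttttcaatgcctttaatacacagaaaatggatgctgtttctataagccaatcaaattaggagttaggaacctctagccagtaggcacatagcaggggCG
Slco6c1: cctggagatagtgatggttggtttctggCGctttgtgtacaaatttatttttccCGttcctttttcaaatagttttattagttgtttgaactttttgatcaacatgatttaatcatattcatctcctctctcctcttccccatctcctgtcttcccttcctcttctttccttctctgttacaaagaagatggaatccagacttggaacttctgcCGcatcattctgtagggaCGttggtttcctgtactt
Slc25a31: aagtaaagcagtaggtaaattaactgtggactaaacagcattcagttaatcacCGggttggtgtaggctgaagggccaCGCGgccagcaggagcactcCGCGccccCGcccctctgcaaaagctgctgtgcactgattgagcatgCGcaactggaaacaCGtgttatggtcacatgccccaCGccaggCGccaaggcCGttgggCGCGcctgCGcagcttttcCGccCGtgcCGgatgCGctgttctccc
Slc25a5: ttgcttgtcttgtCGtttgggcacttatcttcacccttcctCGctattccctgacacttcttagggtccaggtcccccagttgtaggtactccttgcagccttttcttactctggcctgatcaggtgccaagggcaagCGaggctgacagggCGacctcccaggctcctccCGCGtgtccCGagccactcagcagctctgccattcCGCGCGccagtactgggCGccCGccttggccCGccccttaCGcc
Slc7a8: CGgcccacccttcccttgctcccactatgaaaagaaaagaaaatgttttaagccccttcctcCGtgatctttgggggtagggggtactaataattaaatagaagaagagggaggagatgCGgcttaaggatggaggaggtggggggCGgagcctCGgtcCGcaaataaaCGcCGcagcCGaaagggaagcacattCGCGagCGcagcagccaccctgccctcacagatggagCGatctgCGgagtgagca

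**Figure D3:**
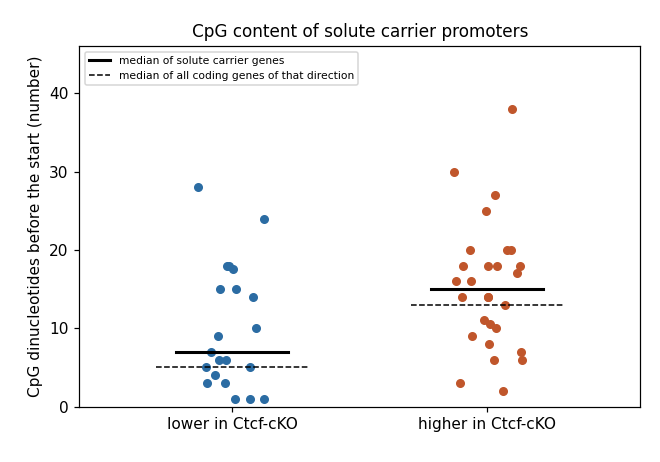
CpG dinucleotides in the 250 bases before the transcription start (vertical axis) of the 21 lower and 28 higher solute carrier genes with a RefSeq promoter; each point is a gene, solid bars are the medians of 7 and 15, and dashed bars the medians of 5 and 13 over the lower and higher coding genes of the table with a matched promoter. The points of both directions overlap over much of their range.

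The promoters were also searched on both strands for 3 short motifs, in the window from 250 bases before to 50 bases after the start. A CTCF core motif, the most conserved letters of the sequence bound by CTCF with some positions free, was present in promoters of 3 of 28 higher solute carriers (*Slc7a1*, *Slc44a2* and *Slc46a3*) and of 0 of 21 lower ones, and in 2.82% of all promoters. Among the matched coding genes of the table, it was in 1.89% of lower and 2.77% of higher ones. At such shares few or no matches are likely in so few promoters, and no difference was tested. The cAMP response element TGACGTCA (2.03% of all promoters) and the nuclear receptor NR5A1 motif AAGGTCA (5.38%) were found in 0 of the 49 genes. A match is a stretch of letters and not a measured site, and the absence of a match says only that the letters are not in this window. The matched stretches lie before the start and are in capitals in the windows chr5:148399905-148400154 (minus strand, *Slc7a1*), chr9:21320469-21320718 (plus strand, *Slc44a2*) and chr5:147894816-147895065 (minus strand, *Slc46a3*, where the match is on the other strand).
Slc7a1: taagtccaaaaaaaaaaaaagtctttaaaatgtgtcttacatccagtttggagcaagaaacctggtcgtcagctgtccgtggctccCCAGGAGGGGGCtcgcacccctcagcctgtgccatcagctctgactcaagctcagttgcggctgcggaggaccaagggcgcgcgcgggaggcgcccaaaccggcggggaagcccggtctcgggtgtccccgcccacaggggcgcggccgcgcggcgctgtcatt
Slc44a2: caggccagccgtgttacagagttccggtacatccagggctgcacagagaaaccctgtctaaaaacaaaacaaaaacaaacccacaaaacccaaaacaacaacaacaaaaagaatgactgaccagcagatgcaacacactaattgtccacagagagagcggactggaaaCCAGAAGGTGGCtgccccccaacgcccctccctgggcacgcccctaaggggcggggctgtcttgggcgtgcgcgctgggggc
Slc46a3: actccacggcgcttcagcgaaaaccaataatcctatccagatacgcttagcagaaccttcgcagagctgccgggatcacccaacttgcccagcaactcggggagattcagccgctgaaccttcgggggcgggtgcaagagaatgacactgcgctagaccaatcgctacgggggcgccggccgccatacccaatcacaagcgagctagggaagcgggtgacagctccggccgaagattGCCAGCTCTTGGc

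Of the sodium/proton exchangers, which couple the uptake of sodium to the release of protons, 3 genes had a row and all 3 were lower. *Slc9c1*, the exchanger of the sperm flagellum that is needed for motility, averaged 9.32 in wild-type against 7.35 in *Ctcf*-cKO, the largest decrease among the solute carriers (-1.97, a linear fold of 3.92). It lies on chromosome 16 from 45535266 to 45607001. *Adcy10*, the soluble adenylyl cyclase that acts together with it in sperm, is no solute carrier and was lower by the same comparison, at 10.78 and 9.05 (-1.73). *Slc9b1*, another exchanger of the flagellum, averaged 9.40 and 7.79 (-1.61). *Slc9a5*, best known from the brain, averaged 8.09 and 6.94 (-1.15).

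The organic ion transporters carry bulky anions, cations and carnitine. *Slco6b1*, *Slco6c1* and *Slco6d1* belong by symbol to the family of organic anion transporting polypeptides and have their main expression in the gonads. *Slco6d1* averaged 9.52 in wild-type against 7.64 in *Ctcf*-cKO (-1.88), *Slco6b1* averaged 9.34 and 7.54 (-1.80) and *Slco6c1* averaged 10.08 and 8.39 (-1.69). All 3 lie on chromosome 1, with 61460 bases between *Slco6b1* and *Slco6c1* and no other coding row of the table between them. *Slco6b1* had no match among the RefSeq protein-coding genes, although the deposited table places it in the class Complex, so it may not encode a transporter. Of the Slc22 genes, *Slc22a16*, a carnitine transporter of the male reproductive tract, averaged 10.54 and 8.88 (-1.66). *Slc22a14*, which is needed for sperm motility in mice, averaged 10.21 and 8.70 (-1.51), and the less studied *Slc22a15* averaged 8.30 and 7.10 (-1.20).

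Other carriers of inorganic ions went in both directions. *Slc26a8*, an anion transporter of the sperm tail, averaged 10.81 in wild-type against 9.41 in *Ctcf*-cKO (-1.40), whereas the anion exchanger gene *Slc26a7* averaged 7.82 and 8.99 (1.17) and *Slc26a10* averaged 6.93 and 7.98 (1.05). The sodium/calcium exchanger *Slc8a2* was lower (8.14 and 7.04) and the chloride/bicarbonate exchanger *Slc4a3* was higher (7.28 and 8.63). The phosphate carriers were split in the same way. *Slc34a2* averaged 9.78 and 8.30 (-1.48) and *Slc20a2* averaged 8.27 and 9.40 (1.13).

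The mitochondrial carriers of Slc25 made up the largest family, with 13 genes, of which *Slc25a54*, *Slc25a2*, *Slc25a31* and *Slc25a41* were lower and 9 were higher. They exchange nucleotides, amino acids and organic acids across the inner mitochondrial membrane. Genes for ADP/ATP carriers, which export ATP from mitochondria, differed in direction. *Slc25a31*, the carrier of the male germ line, averaged 8.97 in wild-type against 7.76 in *Ctcf*-cKO (-1.21). *Slc25a5*, the X-linked carrier of proliferating somatic cells, averaged 9.12 and 11.06 (1.94), and *Slc25a4*, the carrier of heart and muscle, averaged 8.60 and 9.85 (1.25).

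Carriers that exchange ATP-magnesium for phosphate also differed. *Slc25a41* and *Slc25a23* lie on the minus strand of chromosome 17, 2056 bases apart, the closest pair of solute carriers in the table. *Slc25a41* averaged 7.59 and 6.53 (-1.06), and its neighbour *Slc25a23* averaged 7.51 and 8.78 (1.27). *Slc25a54*, a related gene of chromosome 3, averaged 8.52 and 6.82 (-1.70). The ornithine carrier *Slc25a2* averaged 7.90 and 6.59 (-1.31), from a transcript cluster of 30 probes, the fewest among the solute carriers.

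The higher mitochondrial carriers included *Slc25a1*, which exports citrate for the synthesis of fatty acids and sterols, at 8.36 in wild-type against 9.54 in *Ctcf*-cKO (1.18). The aspartate/glutamate carrier *Slc25a12* averaged 6.23 and 7.54 (1.31) and the glutamate carrier *Slc25a18* averaged 7.83 and 9.07 (1.24). *Slc25a30* averaged 8.19 and 9.75 (1.56), *Slc25a45* averaged 7.58 and 8.79 (1.21) and *Slc25a16* averaged 6.69 and 7.80 (1.11). In the plasma membrane, the citrate importer *Slc13a5* went the other way from *Slc25a1*, at 9.35 and 7.69 (-1.66).

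All 5 Slc7 genes with a row were higher. *Slc7a8*, the light subunit of a transporter of neutral amino acids, averaged 9.38 in wild-type against 11.96 in *Ctcf*-cKO, the largest increase among the solute carriers (2.58, a linear fold of 5.98). It lies on chromosome 14 from 54722215 to 54781886. *Slc7a5*, the light subunit that carries large neutral amino acids such as leucine, averaged 9.99 and 11.78 (1.79). *Slc3a2*, the heavy subunit that both light subunits need to reach the cell surface, averaged 9.80 and 11.27 (1.47). Values for the arginine and lysine transporters were 8.10 and 9.46 for *Slc7a1* (1.36) and 7.09 and 8.59 for *Slc7a2*. *Slc7a4*, a relative without a settled substrate, averaged 7.53 and 8.86 (1.33).

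The sodium-coupled transporters of glutamine and other neutral amino acids were also higher. *Slc38a1* averaged 6.49 in wild-type against 7.96 in *Ctcf*-cKO (1.47), and *Slc38a2* averaged 8.44 and 9.85 (1.41). They are neighbours on chromosome 15 with 44478 bases between them. *Slc38a5*, an X-linked gene known from Sertoli cells, averaged 7.43 and 8.66 (1.23). The amino acid and neurotransmitter carriers that were lower were *Slc36a3* (8.87 and 7.64), *Slc6a16* (9.29 and 8.01) and the glutamate transporter *Slc1a2* (7.09 and 5.98). Their family relatives *Slc6a8*, the X-linked creatine transporter (6.81 and 7.98), and *Slc6a4*, the serotonin transporter (6.71 and 7.80), were higher. *Slc18b1*, a vesicular polyamine transporter, averaged 6.28 and 8.23 (1.95), the second largest increase.

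Carriers of sugars and monocarboxylates supply the fuel of glycolysis and respiration. The fructose transporter *Slc2a5* was the only gene of the hexose transporter family Slc2 with a row, of 12 annotated, and averaged 11.35 in wild-type against 10.22 in *Ctcf*-cKO (-1.13). *Slc16a7*, a high-affinity transporter of pyruvate and lactate, averaged 9.89 and 8.80 (-1.09). *Slc16a13* of the same family was higher (7.03 and 8.16), as was the sugar exporter *Slc50a1* (7.48 and 8.62). *Emb*, which encodes a partner protein that brings monocarboxylate transporters to the membrane, averaged 6.64 and 8.35 (1.71), and the related *Bsg* had no row.

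Each of the 5 metal carriers was higher. These were the iron importer *Slc11a2* (8.06 in wild-type against 9.21 in *Ctcf*-cKO), the zinc transporter *Slc30a2* (8.10 and 9.56), the magnesium transporters *Slc41a1* (8.31 and 9.64) and *Slc41a2* (8.19 and 9.32) and the heme transporter *Slc48a1* (7.75 and 8.98). *Slc46a3*, a lysosomal carrier, averaged 6.43 and 7.91 (1.48), and the riboflavin transporter *Slc52a3* averaged 8.70 and 10.10. The fatty acid transport proteins *Slc27a1* (7.84 and 9.07) and *Slc27a6* (7.87 and 9.07) were higher too. Of the choline transporter-like genes, *Slc44a2* averaged 8.28 and 10.04 (1.76) and *Slc44a1* averaged 6.45 and 7.48 (1.03), whereas *Slc44a5* averaged 7.41 and 5.92 (-1.49). In the nucleotide sugar transporter family, *Slc35e3* (6.64 and 7.95), *Slc35g1* (7.33 and 8.38) and *Slc35d2* (4.83 and 5.84) were higher and *Slc35g3* (8.91 and 7.70) was lower. *Slc35d2* was the gene with averages under 6 in both genotypes, and background probes were not analysed here.

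RefSeq annotates 389 protein-coding Slc and Slco genes, and 66 of them (17.0%) had a coding row by symbol or gene identifier, beside 16.1% of all 21896 annotated protein-coding genes. These are 64 of the genes described and 2 whose row carries another symbol, *Slc49a4* (as *Dirc2*, 7.14 in wild-type against 8.19 in *Ctcf*-cKO) and *Slc6a21* (as *1700039E15Rik*, 11.04 and 10.01). A share of 27.7% of the 47 Slc25 genes and 31.2% of the 16 Slc7 genes had a row. There was no row for any of 14 genes of the zinc importer family Slc39, 13 of the sodium-coupled sugar transporter family Slc5, 9 of the cation/chloride cotransporter family Slc12, 9 of Slc17 and 7 of the bile acid transporter family Slc10. How many of these genes the array measured was not analysed here.

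The table also holds a UniGene annotation of the tissues and developmental stages in which transcripts of a gene had been found, which was not used to choose the genes. Lower solute carriers had a median of 5.0 such labels (0 to 22), and higher ones had 28.0 (7 to 51). All lower and higher coding genes of the table had medians of 3.0 and 30.0, so this difference in breadth is shared by the whole table. *Slc9c1* had 3 labels, *Slc22a16* had 2 and *Slco6d1* had 2, whereas *Slc3a2* had 49 and *Slc25a4* had 51. Testis was among the labels of 21 of 24 lower and 30 of 41 higher solute carriers, beside 1801 of 2450 lower and 1182 of 1547 higher coding genes.

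**Figure D4:**
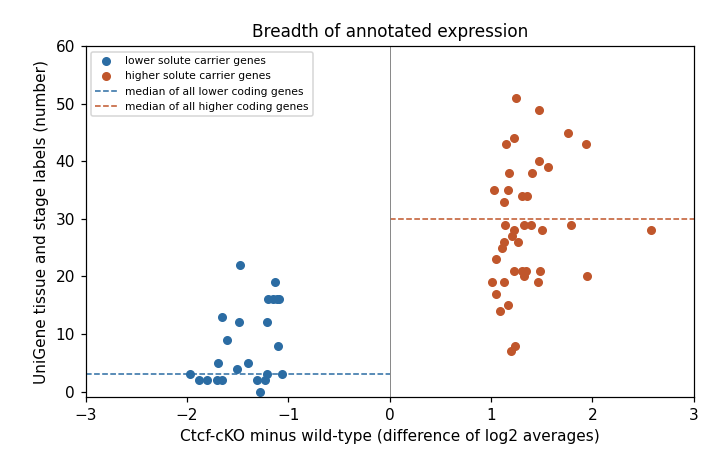
Number of UniGene tissue and stage labels (vertical axis) of each solute carrier gene against its difference between genotypes, Ctcf-cKO minus wild-type (log2, horizontal axis); dashed lines are the medians of 3.0 and 30.0 over all lower and higher coding genes. The 24 lower genes have 0 to 22 labels and the 41 higher genes 7 to 51.

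A list of 14 solute carriers known from spermatids and sperm had 12 genes with a row, all 12 lower, with a median difference of -1.56. The list was chosen with results of these data known, and 61.3% of all coding genes with a row were lower, with a median of -1.29 over those lower genes. The genes of this list without a row were *Slc26a3* and *Slc2a3*. For comparison, 17.0% of all annotated Slc and Slco genes and 16.1% of all annotated protein-coding genes had a row. A list of 6 solute carriers known from macrophages, among them *Slc11a1* and *Slc40a1*, had 0 genes with a row, which for so short a list is near those shares. Of 53 genes that belong to solute carrier families under other names, 11 had a row, of which 2 were lower and 9 were higher. Among these, the mitochondrial uncoupling protein gene *Ucp2* averaged 7.89 in wild-type against 9.85 in *Ctcf*-cKO (1.96), and the ammonium transporter gene *Rhcg* averaged 8.93 and 7.65 (-1.28).

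Transporters of other classes went in both directions. Of 46 ATP-driven ABC transporter genes, 10 had a row, of which 5 were lower and 5 were higher. Of all annotated protein-coding genes, 16.1% had a row, and 61.3% of the coding genes with a row were lower. The lower ones included *Abca14*, *Abca15*, *Abca16* and *Abca17*, of which *Abca16* averaged 9.56 in wild-type against 7.66 in *Ctcf*-cKO (-1.90). *Abca1*, the exporter of cholesterol, averaged 8.85 and 10.96 (2.11). Of 11 aquaporin genes, 5 had a row, of which 3 were lower and 2 were higher. Among them were the water and glycerol channel gene *Aqp7* at 10.84 and 9.50 (-1.34) and *Aqp8* at 7.23 and 9.20 (1.97). Of 9 partner and scaffold genes, *Adcy10* and the scaffold gene *Pdzk1* (9.35 and 7.87) were lower, *Emb* was higher and the others had no row.

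Markers of the cell types of the tubule and its surroundings also went in both directions, and their part in these results was not tested. Every marker with a row had been selected by its fold, and 61.3% of all coding genes with a row were lower. The RNA was that of whole tissue, in which fewer cells of a type and less RNA per cell cannot be told apart. Of 8 markers of primary spermatocytes, 8 were lower, and of 7 markers of round spermatids, 7 were lower, and the summed linear signals, wild-type first, were 6432 and 2632 for spermatocytes and 10214 and 4522 for round spermatids. Of 9 markers of elongating spermatids, 2 were lower (*Akap4* and *Prm3*, 3398 and 1671 in sum) and 7 had no row. Those without a row include *Prm1* and *Prm2*, which the study reports as not down-regulated. The sum thus covers only the 2 genes that passed the fold. Of 8 markers of Leydig cells, 7 were higher and *Insl3* had no row, with summed linear signals of 7713 and 28755. Leydig cells lie outside the tubule, so their RNA was present although the labels give seminiferous tubules as the tissue region. The sample titles, however, read testes. Of 8 markers of Sertoli cells, 6 were higher and *Amh* and *Rhox5* had no row, with summed linear signals of 1712 and 5635. Higher too were 5 of 7 markers of macrophages (786 and 2478 in sum), 3 of 5 of peritubular myoid cells (1207 and 3001), 2 of 5 of endothelial cells (208 and 454) and 1 of 6 of spermatogonia (*Kit*, 224 and 1090), and the other genes of these lists had no row.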

How the data were processed

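Per the submitters' processing notes, arrays were handled with Affymetrix Expression Console 1.4.1, RMA and Transcriptome Analysis Console 3.0 on mm10. The authors deposited 1 table of 7580 rows with bi-weight averages of log2 signal per genotype. Its rows passed a linear fold of 2 and a p of 0.05. Its own columns of folds, p-values and adjusted p-values were not used. Decimal commas were read as points, and averages ran from 3.11 to 13.16. The arrays, 3 wild-type and 4 *Ctcf*-cKO, set the precision, which could not be computed.

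The 4102 rows of class Coding or Complex were reduced to 3997 distinct first symbols. A gene is a solute carrier if that symbol begins with Slc and a digit or with Slco. The sign of *Ctcf*-cKO minus wild-type set the direction of a gene, and linear folds were computed from the rounded averages. The solute carriers, families and lists were chosen with earlier results of these data known. By rule the text names the 10 genes with the lowest and 10 with the highest differences, those with the highest average in each genotype, the extremes of families with both directions, the genes of Slc2, Slc7, Slc9, Slc22, Slc25 and Slc26, and examples from the lists. The other solute carriers were named after their values were seen. Of the 65 genes, 64 matched a RefSeq protein-coding gene, and all 64 overlapped it. A comparison of protein sequences was planned and not run, as protein sequences were not used here. The functions passed 8 of 8 checks on simulated data. Python 3.11.15, numpy 2.4.6, pandas 2.3.3 and matplotlib 3.10.9 were used.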

Additional observations from a re-analysis of the deposited data

How the results depend on the processing

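Of the 24 lower and 41 higher solute carriers, counts were equal when rows were counted in place of symbols, when rows with equal values were counted once and when every symbol of a row was read; where genes under 6 on the log2 scale in both groups were dropped they were 24 and 40. With a linear fold of at least 3 they were 8 and 5, and the lower share went from 36.9% to 61.5%, to the other side of an even split. In the class Coding alone they were 13 and 14, with a lower share of 48.1%. Setting the median of the table's rows (-1.15) to zero gave 18 lower and 46 higher with *Slc9a5* at 0.0, and turned *Slc1a2* (0.04), *Slc16a7* (0.06), *Slc2a5* (0.02), *Slc25a41* (0.09) and *Slc8a2* (0.05) above 0; setting that of the coding rows (-1.12) to zero gave 20 and 45. As the rows were preselected by fold, these medians are not those of the whole array. Alternatives chosen after seeing the data were the re-centred differences with a fold of 2 applied again, which left 0 lower (0% of the total) and 41 higher, and RefSeq symbols by gene identifier, with 25 and 42. Motif counts were equal in the 250 bases before the start. No paired analysis was possible because the deposited table holds group averages, and a limma fit and leaving out each mouse were not run for the same reason.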

Other observations

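Non-coding transcript clusters of the table overlapped the span of 2 solute carriers, both on the opposite strand and both lower, as the solute carriers were. Over *Slc13a5*, the non-coding averages were 9.95 and 8.81 (-1.14), for a cluster at chr11:72266126-72269534, wild-type given first. Over *Slc1a2*, they were 7.32 and 6.13 (-1.19), for a cluster at chr2:102737907-102747822. On the strand of the gene, 0 non-coding rows overlapped a solute carrier.

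Neighbouring solute carriers less than 1000000 bases apart formed 6 pairs. Directions were equal in *Slco6b1* and *Slco6c1*, *Slc38a1* and *Slc38a2*, *Slc7a4* and *Slc25a1*, and *Slc46a3* and *Slc7a1*. They were opposite in *Slc25a41* and *Slc25a23*, and in *Slc35g3* and *Slc16a13*, which lie 454820 bases apart on chromosome 11 with 4 other coding rows between them.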
